A study of Mus musculus with 2 samples.

Results

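The 4 genes of the Reelin signalling core, *Reln*, *Dab1*, *Vldlr* and *Lrp8*, were measured in sorted Cajal-Retzius (CR) cells of the mouse hippocampus. They were taken by their symbols from the 32285 genes of the deposited gene lists, and each symbol matched 1 gene. CR cells of P14 hippocampi were profiled in 2 libraries of 4 pooled mice each. The control library came from ΔNp73-Cre; Cic flox/+; tdT mice, 3 male and 1 female, which are conditional heterozygotes and not wildtype animals. The knockout library came from ΔNp73-Cre; Cic flox/flox; tdT littermates, 2 male and 2 female. All mice therefore carried ΔNp73-Cre, a Cre line active in CR progenitors, with a Cre-dependent tdTomato reporter by which live cells were sorted. Each barcode with at least 2000 unique molecular identifiers (UMIs, each counted as 1 captured RNA molecule) was used, which gave 1011 control and 406 knockout barcodes. With 1 library per genotype, every comparison describes those libraries. The 95% intervals given in parentheses cover counting error only, not the spread between cells or mice, and no significance test was made.

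Reelin is a large secreted glycoprotein, and CR cells are its classical source at the surface of the developing cortex and along the hippocampal fissure. It binds the lipoprotein receptors VLDLR and ApoER2, the latter encoded by *Lrp8*, on the cells that respond to it. The receptor tails hold an Asn-Pro-x-Tyr motif, which binds the adaptor DAB1. Receptor clustering leads Src family kinases to phosphorylate DAB1, which passes the signal on to the cytoskeleton and to phosphoinositide 3-kinase. Loss of Reelin, of DAB1 or of both receptors disturbs the layering of cortical and hippocampal neurons. In this background CR cells are the senders, and the questions for these data are how evenly they carry *Reln* RNA, whether they also carry RNA for the receiving machinery, and how each differs by *Cic* genotype and by CR cell class.

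*Reln* (ENSMUSG00000042453) lies on the minus strand of chromosome 5 from 21884454 to 22344702 (GENCODE M21 on GRCm38). *Dab1* (ENSMUSG00000028519) spans 1125486 bases of chromosome 4 from 103619359 to 104744844 on the plus strand. *Lrp8* (ENSMUSG00000028613) lies further along the same chromosome from 107802261 to 107876840 on the plus strand. *Vldlr* (ENSMUSG00000024924) lies on chromosome 19 from 27216484 to 27254231 on the plus strand and is the shortest of the 4 genes. Within *Reln*, the file also counts the opposite-strand genes *Gm10475*, with 2131 control and 917 knockout UMIs, and *Gm16110*, with 32 and 6 UMIs. Within *Lrp8* it counts *Lrp8os2*, with 164 and 49 UMIs, and *Lrp8os1*, with none. These partners are counted apart from *Reln* and *Lrp8*. The strand setting of the count is not stated in the sources used here. Whether any reads of the partners were counted for *Reln* or *Lrp8* was not tested. No other listed gene overlaps *Dab1* or *Vldlr*.

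The coding sequences of the docking motif are shown because they are what joins both receptors to DAB1. Each is printed 5′ to 3′ on the plus strand, with the 4 codons of Asn-Pro-x-Tyr in capitals and 24 bases on either side, from the longest coding transcript of GENCODE M21. The *Vldlr* stretch lies in exon 18 of 19 at chr19:27247916-27247975, and the *Lrp8* stretch in exon 17 of 19 at chr4:107869037-107869096.
Vldlr: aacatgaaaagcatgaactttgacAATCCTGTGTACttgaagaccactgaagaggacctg
Lrp8: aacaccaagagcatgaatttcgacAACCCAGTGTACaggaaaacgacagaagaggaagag
These stretches are identical at 45 of 60 bases, and their motif codons at 10 of 12 bases. They are reference sequence, and the 3′ UMI counts do not show which receptor isoform was made.

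CIC is a repressor known to bind the octamers TGAATGAA and TGAATGGA. Both octamers were searched on both strands of the RefSeq promoter windows (GRCm38.p6, 250 bases before to 50 after each start), and neither is contained in the other. None of the 1 *Reln*, 2 *Dab1*, 2 *Vldlr* and 3 *Lrp8* windows held either octamer, against 2.47% of all 32851 windows. This says only that these letters are not in these windows.

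The deposited matrices held 16336796 control and 6777071 knockout UMIs. Control barcodes held 2012 to 31769 UMIs (median 6222) while knockout barcodes held 2017 to 33453 (median 6440.5), and no barcode sequence was shared between libraries. All 8 CR markers, *Trp73* and *Ndnf* among them, had a UMI in over 25% of barcodes of both libraries. The same mark was passed by 1 marker each of astrocytes (*Slc1a2*, 35.3% and 32.8%), oligodendrocyte precursors (*Cspg4*, 30.1% and 36.7%) and mural cells (*Rgs5*, 31.6% and 29.8%). Such a share does not separate RNA of the cell from free RNA, which is read below for some of the CR markers. Another marker list held more UMIs than the CR list in 6 control and 12 knockout barcodes (0.593% and 2.96%). The 4 ependymal or choroid markers summed to 554 control and 1119 knockout CPM, with none at 0. Nearly all of this was *Ttr*, at 543 and 1100 CPM and found in 2.47% and 4.43% of barcodes. Of the others, *Folr1* was higher in the knockout (2.26 and 11.4 CPM), and *Kcnj13* (7.98 and 6.40) and *Foxj1* (1.36 and 1.07) were lower. Markers of GABAergic neurons, another Reelin source, summed to 1.05 and 3.20 CPM, with 3 of 6 at 0. *Cic* itself was at 58.7 control and 50.5 knockout CPM, a ratio of 0.859 (0.704 to 1.04). Its 3′ tags may lie outside the deleted part and so check nothing. *Etv4*, a known CIC target, was at 1.96 CPM in control barcodes (13 UMIs) and 70.0 CPM in knockout barcodes (197 UMIs).

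*Reln* RNA was abundant and nearly universal in both libraries. It reached 8132 CPM in the control (8063 to 8200, from 53981 UMIs) and 7745 CPM in the knockout (7642 to 7848, from 21789 UMIs). CPM here means UMIs per 1000000 UMIs outside mitochondrial and ribosomal protein genes, with no scaling by gene length since the tags are 3′ ends. At least 1 *Reln* UMI was found in 1006 of 1011 control barcodes and in 395 of 406 knockout barcodes, or 99.5% and 97.3%. Thinning every barcode to 2000 UMIs left both shares at those values.

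The few barcodes without *Reln* mostly did not look like CR cells by their markers. Of the 5 in the control, 4 were led by ependymal or choroid markers, and the other, with 2071 UMIs, held no UMI of any marker list. All 11 in the knockout were led by markers of astrocytes, ependymal or choroid cells, granule neurons or mural cells. None of these 16 barcodes held a *Trp73* UMI. Conversely, none of the 4 control and 4 knockout barcodes led by ependymal or choroid markers held a *Reln*, *Dab1* or *Vldlr* UMI, at median depths of 4977.5 and 3366.5 UMIs. With only 4 barcodes, the exact upper limit of a count of 0 is 60.2%.

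Single barcodes differed several-fold in *Reln*. In the control, the 10th percentile was 4357 CPM, the median 7952 CPM and the 90th percentile 12097 CPM, up to a highest barcode of 24437 CPM. In the knockout, the same values were 3663, 7419 and 11942 CPM, with a highest barcode of 18231 CPM. The distributions overlapped almost throughout. The 10 barcodes richest in *Reln* held only 3.91% of the control and 7.49% of the knockout *Reln* UMIs.

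**Figure D1:**
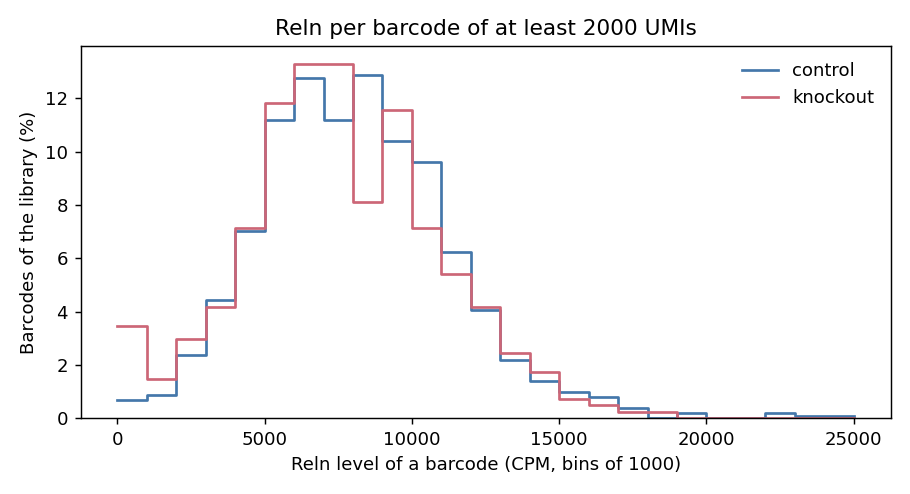
Share of barcodes of at least 2000 UMIs (y axis, % of the library) by the *Reln* level of the barcode (x axis, CPM in bins of 1000) in the control (blue) and knockout (red) library. Both libraries peak between 5000 and 11000 CPM, and the lowest bin holds 0.692% of control barcodes against 3.45% of knockout barcodes.

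*Lrp8*, which encodes ApoER2, was the better detected receptor. It was at 104 CPM in the control (96.2 to 112, from 689 UMIs) and 97.0 CPM in the knockout (85.9 to 109, from 273 UMIs). A UMI was found in 42.3% of control and 38.7% of knockout barcodes, and in 18.4% (16.1 to 20.9) and 15.0% (11.7 to 18.9) after thinning to 2000 UMIs. Most positive barcodes held a single molecule: 264 control and 99 knockout barcodes had 1 UMI, and 62 and 31 had 3 or more.

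*Vldlr*, the other canonical receptor gene, was near the limit of detection. It was at 15.4 CPM in the control (12.5 to 18.7, from 102 UMIs) and 14.9 CPM in the knockout (10.8 to 20.2, from 42 UMIs). After thinning, 2.57% of control and 2.22% of knockout barcodes held a UMI. No barcode held more than 3 *Vldlr* UMIs.

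*Dab1*, the cytoplasmic adaptor, had fewer positive barcodes than *Lrp8* in the control but more molecules in each. It was at 121 CPM in the control (113 to 130, from 806 UMIs) and 204 CPM in the knockout (188 to 221, from 574 UMIs). A UMI was found in 31.0% of control and 39.7% of knockout barcodes, and in 15.6% (13.4 to 18.0) and 21.4% (17.5 to 25.7) after thinning. At least 3 *Dab1* UMIs were found in 109 of 1011 control and 74 of 406 knockout barcodes.

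Free RNA gives every droplet some UMIs, so the same genes were read in droplets of 20 to 100 UMIs (29040 control, median 89 UMIs, and 75813 knockout, median 44 UMIs). *Reln* stood at 957 control and 880 knockout CPM in those droplets, so that its level in barcodes was 8.50-fold (8.13 to 8.88) and 8.80-fold (8.45 to 9.16) higher. *Dab1* in barcodes was 9.80-fold (6.68 to 15.0) and 10.0-fold (7.69 to 13.2) above its droplets. In droplets, *Dab1* was at 20.4 CPM (15.6 to 26.2, from 62 UMIs) in the knockout and 12.4 CPM (8.17 to 18.0, from 27 UMIs) in the control. These intervals overlapped. *Lrp8* was 4.71-fold (3.51 to 6.45) and 3.88-fold (3.00 to 5.07) above its droplets. *Vldlr* was only 2.58-fold (1.44 to 5.00) and 1.97-fold (1.16 to 3.44) above its droplets, the smallest such ratio of the 4 genes in either library. Of the CR markers read in this way, *Ndnf* was 4.39-fold and 4.004-fold above its droplets. *Trp73* was lower in barcodes than in droplets, with ratios of 0.569 (0.537 to 0.604) and 0.567 (0.531 to 0.606). *Calb2* was lower still, with ratios of 0.182 and 0.218. How many *Trp73* or *Calb2* UMIs of a barcode were free RNA was not tested.

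**Figure D2:**
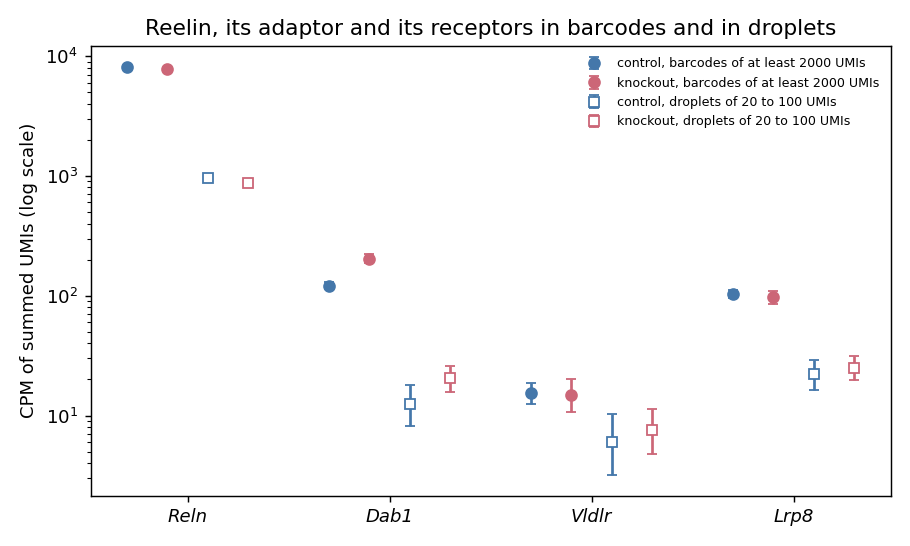
Level of each gene (y axis, CPM of summed UMIs, log scale) in barcodes of at least 2000 UMIs (filled circles) and droplets of 20 to 100 UMIs (open squares) of the control (blue) and knockout (red) library, with exact 95% Poisson intervals as bars. *Reln* lies above 7000 CPM in barcodes, *Dab1* and *Lrp8* near 100 to 200 CPM and *Vldlr* near 15 CPM, each above its droplets.

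*Dab1* was the only one of the 4 genes past 1.5-fold between genotypes. Its ratio of knockout to control was 1.68 (1.51 to 1.87), and its level was the higher in the knockout. In the same comparison, 4.45% of 9497 genes with at least 100 UMIs were past 1.5-fold in either direction, 271 higher and 152 lower in the knockout, so 1 of 4 genes is a single case against that background. The median ratio over those genes was 1.01. *Reln* had a ratio of 0.952 (0.938 to 0.968), *Lrp8* of 0.935 (0.810 to 1.08) and *Vldlr* of 0.972 (0.662 to 1.40). The intervals of both receptors included 1, and that of *Vldlr* was the widest.

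A small number of barcodes weighed on the *Dab1* ratio. One knockout barcode of 3826 UMIs held 52 *Dab1* UMIs, 9.06% of all *Dab1* UMIs of that library, without any UMI of *Reln*, *Trp73* or *Ndnf*, and its leading marker list was that of granule neurons with 5 UMIs. Without the barcode highest in *Dab1* in each library the ratio was 1.56 (1.39 to 1.74), and without all barcodes led by another marker list it was 1.54 (1.38 to 1.72). At least 10 *Dab1* UMIs were held by 4 control barcodes, with 5.71% of that library's *Dab1* UMIs, and by 7 knockout barcodes, with 23.0%. The other 6 of those 7 knockout barcodes carried 29 to 145 *Reln* UMIs each. Weighting the knockout barcodes to the control mix of CR classes gave 1.63.

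The sexes of the pooled mice could be read from *Xist* and 4 Y-linked genes, and the control barcodes were more often male (706 male and 227 female, against 198 and 178 in the knockout). *Dab1* was higher in the knockout in both, with a ratio of 1.47 (1.27 to 1.71) in male and 1.92 (1.59 to 2.33) in female barcodes. The knockout barcode highest in *Dab1*, led by granule neuron markers, was kept in 1 of these sexes. Which sex was not recorded, and the *Dab1* ratios by sex were not computed without that barcode. *Reln* was 0.920-fold (0.901 to 0.940) in male barcodes but 1.05-fold (1.03 to 1.08) in female barcodes, so its direction differed between these barcodes. *Lrp8* was 1.10-fold (0.914 to 1.32) in male and 0.756-fold (0.588 to 0.967) in female barcodes. Each sex of a library came from 1 to 3 mice, so sex cannot be told apart from the single animals.

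**Figure D3:**
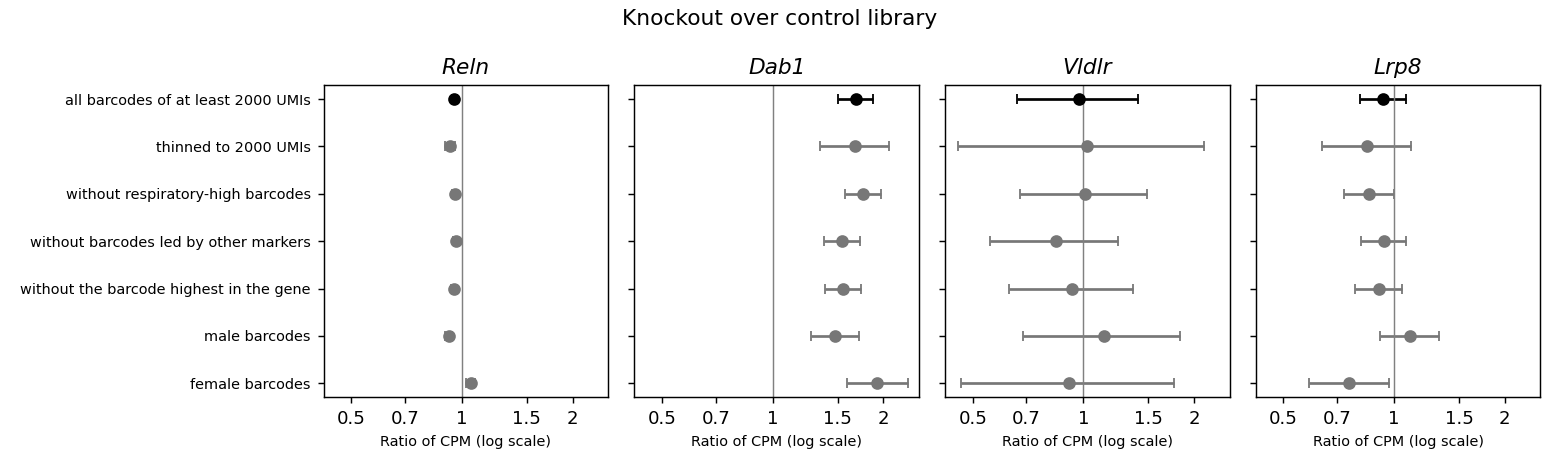
Ratio of knockout to control CPM (x axis, log scale) of each gene for all barcodes (black) and for 6 other choices of barcodes (grey), with exact 95% intervals for counting error as bars. *Dab1* lies between 1.47 and 1.92 throughout, while *Reln* lies between 0.920 and 1.05 and *Vldlr* and *Lrp8* fall on both sides of 1. The *Dab1* values by sex were not computed without the knockout barcode highest in *Dab1*.

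CR cells of the postnatal hippocampus were next split by class genes: *Cck*, a neuropeptide gene, *Grik1*, a kainate receptor gene, and *Chst8* or *Alkal2*, a sulfotransferase gene and a receptor tyrosine kinase ligand gene. A barcode was positive when it held at least 1 UMI of the class genes. The 6 control and 12 knockout barcodes led by other markers were kept in. They were negative for these classes, apart from 1 *Grik1*-positive knockout barcode. Class ratios were not computed without these barcodes as a set. Positive barcodes were deeper than the rest, from medians of 6397 and 6143 UMIs for *Cck* in the control to 7869 and 6256 for *Chst8* or *Alkal2* in the knockout. CPM scales by depth while a share of positive barcodes does not, although CPM also differed between depths.

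*Grik1*-positive barcodes stood out by *Vldlr* and *Dab1*. In the control, 194 positive barcodes had 31.2 CPM of *Vldlr* and 817 negative barcodes had 11.2 CPM, a ratio of 2.78 (1.83 to 4.19). In the knockout, 71 positive barcodes had 29.6 CPM and 335 negative barcodes 11.4 CPM, a ratio of 2.59 (1.30 to 5.01) that rests on 16 and 26 UMIs. *Dab1* was at 179 CPM in positive and 106 CPM in negative control barcodes, a ratio of 1.69 (1.45 to 1.96). In the knockout it was at 296 and 182 CPM, a ratio of 1.63 (1.35 to 1.96). Both genes thus had their higher level in the *Grik1*-positive barcodes of both libraries, which are separate sets of cells.

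The thinned shares had the same order for *Dab1*, although few barcodes remained positive, and the thinned CPM ratio in the knockout was 2.52. In the control, 23.0% of 100 *Grik1*-positive barcodes (15.2 to 32.5) and 14.8% of 911 negative barcodes (12.6 to 17.3) held a *Dab1* UMI. In the knockout, these shares were 46.9% of 32 (29.1 to 65.3) and 19.3% of 374 (15.4 to 23.6). For *Vldlr*, the thinned shares were 7% of positive (2.86 to 13.9) and 2.09% of negative control barcodes (1.26 to 3.24). In the knockout they were 6.25% (0.766 to 20.8) and 1.87% (0.756 to 3.82), from 2 and 7 barcodes. These *Vldlr* intervals overlapped in both libraries. The *Lrp8* ratios of 1.10 (0.913 to 1.32) in control and 1.19 (0.875 to 1.59) in knockout barcodes had intervals that include 1. *Reln* had a ratio of 1.02 (0.997 to 1.04) in control and 0.920 (0.888 to 0.952) in knockout barcodes, the latter 1.00 when positivity asked for 2 UMIs. Among all genes with at least 100 UMIs, 6.97% in the control and 8.27% in the knockout were past 1.5-fold in this split, *Dab1* and *Vldlr* being past it in control barcodes and *Dab1* alone in knockout barcodes, where *Vldlr* had too few UMIs to be counted.

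*Cck*-positive barcodes had less *Dab1* and slightly more *Reln*. *Dab1* was at 95.3 CPM in 324 positive and 135 CPM in 687 negative control barcodes, a ratio of 0.705 (0.601 to 0.825). In the knockout it was at 117 CPM in 110 positive and 238 CPM in 296 negative barcodes, a ratio of 0.490 (0.388 to 0.613), or 0.549 (0.434 to 0.688) without the barcode of 52 *Dab1* UMIs. *Reln* was 1.06-fold (1.04 to 1.08) and 1.07-fold (1.04 to 1.10) higher in the positive barcodes, a difference that is small beside the spread between barcodes. All barcodes without *Reln* and all those led by other markers were *Cck*-negative, and their part in these *Reln* ratios was not tested. *Lrp8* had ratios of 0.862 (0.731 to 1.02) in control and 1.27 (0.975 to 1.64) in knockout barcodes, and *Vldlr* was at 0.869 (0.553 to 1.34) and 0.507 (0.190 to 1.16), all with intervals that include 1. The last of these came from 7 and 35 UMIs. In the knockout, 4 barcodes tied at the highest count of 3 *Vldlr* UMIs. Without the first listed of them the ratio was 0.294 (0.0759 to 0.822), and leaving out another of them was not tried. Past 1.5-fold in this split were 4.81% of genes in the control, none of the 4 among them, and 7.97% in the knockout, with *Dab1*.

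Barcodes positive for *Chst8* or *Alkal2* differed from the rest by other amounts in each library. In the control, *Vldlr* was at 8.57 CPM in 232 positive and 17.6 CPM in 779 negative barcodes, a ratio of 0.487 (0.256 to 0.861) from 14 and 88 UMIs. In the knockout, the same ratio was 1.35 (0.659 to 2.66) from 14 and 28 UMIs in 91 positive and 315 negative barcodes. *Dab1* had ratios of 1.01 (0.857 to 1.19) in control and 0.693 (0.561 to 0.851) in knockout barcodes, *Reln* was at 0.924 (0.905 to 0.942) and 0.987 (0.958 to 1.02), and *Lrp8* at 1.15 (0.966 to 1.36) and 1.22 (0.936 to 1.59). With positivity at 2 UMIs, *Dab1* was lower in the positive barcodes of both libraries, at 0.653 (0.502 to 0.838) and 0.605 (0.449 to 0.802). *Lrp8* was then higher in both, at 1.27 (1.03 to 1.57) and 1.504 (1.10 to 2.03), but after thinning it was at 0.522 in the knockout. The background past 1.5-fold was 6.6% in the control, where *Vldlr* was past it, and 8.31% in the knockout, where none of the 3 genes with enough UMIs was.

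**Figure D4:**
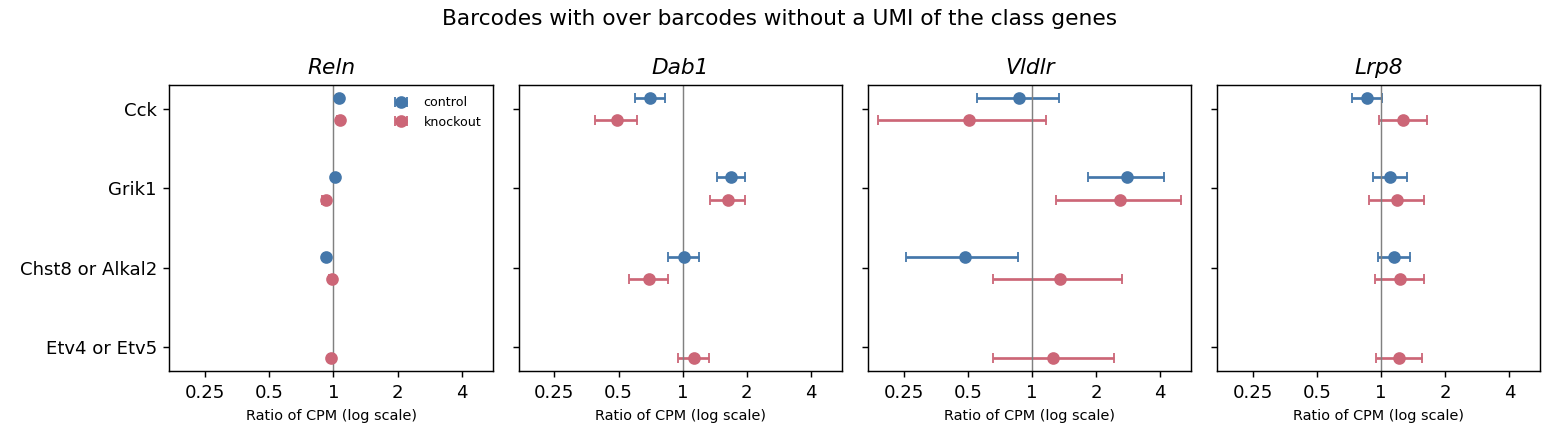
Ratio of CPM in barcodes with over barcodes without a UMI of the class genes (x axis, log scale) for each gene, in the control (blue) and knockout (red) library, with exact 95% intervals for counting error as bars. *Dab1* and *Vldlr* lie to the right of 1 for *Grik1* in both libraries and *Dab1* to the left for *Cck*, while *Reln* stays between 0.920 and 1.07.

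The higher *Dab1* of the knockout was read within each class. Its ratio of knockout to control was 1.65 (1.35 to 2.02) in *Grik1*-positive and 1.71 (1.51 to 1.95) in *Grik1*-negative barcodes. It was 1.23 (0.952 to 1.57) in *Cck*-positive and 1.76 (1.56 to 1.99) in *Cck*-negative barcodes. It was 1.26 (0.994 to 1.59) with and 1.84 (1.62 to 2.08) without *Chst8* or *Alkal2*. The point estimate was above 1 in each class, but the intervals of the *Cck*-positive and the *Chst8* or *Alkal2*-positive barcodes included 1. The barcode of 52 *Dab1* UMIs was negative for every class. The control barcode highest in *Dab1*, with 15 *Dab1* and 91 *Reln* UMIs, was positive for every class. Without the barcode highest in *Dab1* in each library, the *Grik1*-positive ratio of 1.74 (1.42 to 2.14) was above the negative one of 1.501 (1.31 to 1.72), so their order turned. The ratio was then 1.31 (1.01 to 1.68) with and 1.58 (1.39 to 1.79) without *Cck*, and 1.35 (1.06 to 1.71) with and 1.63 (1.43 to 1.85) without *Chst8* or *Alkal2*. In the positive classes only the control counts changed, from 218 to 203 *Dab1* UMIs for *Cck* and from 200 to 185 for *Chst8* or *Alkal2*. Their intervals thus left out 1 only after that 1 control barcode was dropped. The differences between classes were not tested.

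Knockout barcodes were also split by *Etv4* or *Etv5*, transcription factor genes known as CIC targets, since the study states that CIC was lost from only part of the CR cells. A UMI of either was found in 41.1% of knockout barcodes, and in 20.0% after thinning. The study found CIC deleted from a larger share of CR cells, so a negative barcode need not have kept CIC. Barcodes led by other markers were 4 of the positive and 8 of the negative ones. *Dab1* was at 218 CPM in 167 positive and 193 CPM in 239 negative barcodes, a ratio of 1.13 (0.952 to 1.33). The barcode of 52 *Dab1* UMIs was among the negative ones, and without it the ratio was 1.36 (1.14 to 1.62). *Reln* was at 0.979 (0.953 to 1.01), *Vldlr* at 1.26 (0.654 to 2.42) and *Lrp8* at 1.21 (0.950 to 1.55), or 0.897 after thinning. None of the 3 genes with at least 100 UMIs was past 1.5-fold, against 4.62% of genes in this split. *Etv4* or *Etv5*-positive barcodes were deeper, with a median of 7072 against 6094 UMIs.

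In some barcodes, 109 control and 52 knockout, nuclear respiratory chain genes took over 1.5% of UMIs outside mitochondrial and ribosomal protein genes. These respiratory-high barcodes had less *Reln* than the rest. *Reln* was at 5815 CPM there and 8591 CPM in the other control barcodes, a ratio of 0.677 (0.659 to 0.695), and the ratio in the knockout was 0.688 (0.661 to 0.716). *Dab1* was lower in the same barcodes, with ratios of 0.571 (0.449 to 0.718) and 0.357 (0.253 to 0.491). Barcodes led by other markers made up 5 of the 109 and 7 of the 52, and those without *Reln* also 5 and 7. Leaving out all barcodes led by other markers gave 0.696 (0.678 to 0.714) and 0.711 (0.683 to 0.740) for *Reln*, and 0.579 (0.455 to 0.730) and 0.399 (0.281 to 0.551) for *Dab1*. The respiratory-high barcodes were also deeper, with medians of 12483 against 6064 UMIs in control and 8658.5 against 6400.5 in knockout barcodes, and the part of depth was not tested. By CPM, *Lrp8* was lower only in the control, at 0.616 (0.478 to 0.783) against 1.14 (0.834 to 1.55) in the knockout, a difference that was not tested. By thinned shares it was lower in both libraries. It was found in 11.0% of 109 respiratory-high and 19.3% of 902 other control barcodes, and in 7.69% of 52 and 16.1% of 354 knockout barcodes. No intervals were computed for these shares, which rest on few positive respiratory-high barcodes, and their difference was not tested. The cut is a point on a continuous range, with 52 control and 25 knockout barcodes within 0.25 percentage points of it.

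RNA of a sender and of the receiving machinery met in a minority of barcodes at this depth. *Reln*, *Dab1* and at least 1 of both receptor genes were found together in 14.9% of control barcodes (12.8 to 17.3) and 17.2% of knockout barcodes (13.7 to 21.3), and in 3.56% and 3.45% after thinning. Neither *Dab1* nor a receptor was found in 37.2% (34.2 to 40.3) and 35.7% (31.0 to 40.6), which at a median depth near 6000 UMIs does not show absence. In thinned barcodes, *Lrp8* was found in 19.6% of *Dab1*-positive (13.7 to 26.7) and 18.2% of *Dab1*-negative control barcodes (15.6 to 20.9). In the knockout, the shares were 12.6% (6.48 to 21.5) and 15.7% (11.9 to 20.1). The intervals of adaptor-positive and adaptor-negative barcodes overlapped in both libraries.

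Only *Reln* was detected widely enough to be compared gene by gene. Over 1011 control and 406 knockout barcodes thinned to 2000 UMIs, the Pearson correlation of log counts was computed with each of 921 genes found in at least 25% of barcodes of both libraries. The highest values were those of *Malat1*, a nuclear noncoding RNA (0.39 over control and 0.60 over knockout barcodes), and of *Cntnap2* (0.38 and 0.61), *Lsamp* (0.37 and 0.57), *Robo2* (0.34 and 0.48) and *Lingo2* (0.33 and 0.45), which encode neuronal adhesion and guidance proteins. The lowest were those of *H3f3a* (-0.30 and -0.32), *Tpt1* (-0.26 and -0.44), *Ubb* (-0.26 and -0.26), *Eif1* (-0.26 and -0.34) and *Eef1a1* (-0.25 and -0.27), genes of chromatin, protein turnover and translation. Apart from *Malat1*, with 6983 bases, the genes at the top span 519987 to 2244857 bases, as *Reln* spans 460249, and those at the bottom 2043 to 13112 bases. The CR marker *Trp73* was at 0.09 and 0.18. The barcodes of a library share its preparation and free RNA, and these values describe them without a test. The 6 control and 12 knockout barcodes led by other markers were kept in, and their part in the values was not tested.

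Beyond the 4 core genes, 62 genes of the pathway were read between genotypes, of which 50 had at least 100 UMIs. Past 1.5-fold with an interval that left out 1 were 3 of the 50, all higher in the knockout, beside the 4.45% of all genes past 1.5-fold. A count of 3 is close to that share, and the median ratio of the 50 genes was 0.983, against 1.01 over all genes. The 2 measurable Reelin proteases were *Furin*, at 44.1 and 54.7 CPM (ratio 1.24, 1.01 to 1.51), and *Plat*, the tissue plasminogen activator gene, at 29.5 CPM in both. The 4 *Adamts* genes of the list, some of which encode the main Reelin-cleaving enzymes, each had under 100 UMIs and were not compared.

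Both ligands past 1.5-fold are genes of glia and choroid plexus. *Apoe*, which encodes the lipoprotein that gives ApoER2 its name, was at 57.4 control and 146 knockout CPM, a ratio of 2.55 (2.21 to 2.94). *Clu*, the clusterin gene, was at 16.3 and 33.4 CPM, a ratio of 2.05 (1.54 to 2.73). Barcodes led by markers of another cell type held 81.4% of control and 79.9% of knockout *Apoe* UMIs, and 70.4% and 88.3% of *Clu* UMIs. Without them, *Clu* was at 0.819 (0.372 to 1.67) and *Apoe*, with 71 and 83 UMIs left, at 2.78 (2.00 to 3.88). With those barcodes kept in, *Apoe* was at 8.84 (6.82 to 11.6) in male and 0.802 (0.619 to 1.04) in female barcodes. The sex ratios were not computed without them.

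*Mylip* encodes an E3 ubiquitin ligase known to direct the LDL receptor, VLDLR and ApoER2 to degradation. It was at 11.0 control and 23.8 knockout CPM, from 73 and 67 UMIs, a ratio of 2.17 (1.53 to 3.06). Barcodes led by other markers held none of its control and 1 of its knockout UMIs, and the ratio without them was 2.15 (1.52 to 3.05). It was 2.42 (1.54 to 3.78) in male and 1.39 (0.745 to 2.60) in female barcodes. The other chaperone and turnover genes lay between 0.942 and 1.24, with *Lrpap1*, a receptor chaperone gene, at 211 CPM in both libraries and *Mesd*, another, at 49.4 and 46.6 CPM.

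Genes of the remaining groups with at least 100 UMIs were within 1.5-fold of the control. Related lipoprotein receptors lay between 0.852 and 1.18, led by *Lrp1* (332 and 327 CPM) and *Lrp6* (112 and 115 CPM). *Lrp5*, a Wnt co-receptor gene, had a ratio of 3.15 (1.91 to 5.23) from 30 and 40 UMIs, below the 100 UMIs asked for, and was singled out after its value was seen. Candidate co-receptors lay between 0.821 and 1.03, led by *App* (1722 and 1670 CPM) and the integrin gene *Itgb1* (130 and 113 CPM). The kinases that phosphorylate DAB1 and the ubiquitin ligase parts that remove it lay between 0.811 and 1.14, led by *Fyn* (195 and 168 CPM, 0.864, 0.776 to 0.961) and *Cul5* (81.9 and 87.1 CPM). Effectors of DAB1 lay between 0.861 and 1.05, led by the adaptor *Nck2* (108 and 93.1 CPM) and by *Dab2ip* (98.5 and 103 CPM). Of the phosphoinositide 3-kinase branch, *Gsk3b*, a kinase gene, was at 347 and 323 CPM (0.930, 0.860 to 1.00), and *Pik3r2*, a regulatory subunit gene, had the highest ratio of the branch, 1.16 (0.835 to 1.60). Cytoskeletal effectors lay between 0.868 and 1.13, led by *Map1b* (635 and 584 CPM) and *Pafah1b1*, the Lis1 gene (337 and 350.1 CPM).

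**Figure D5:**
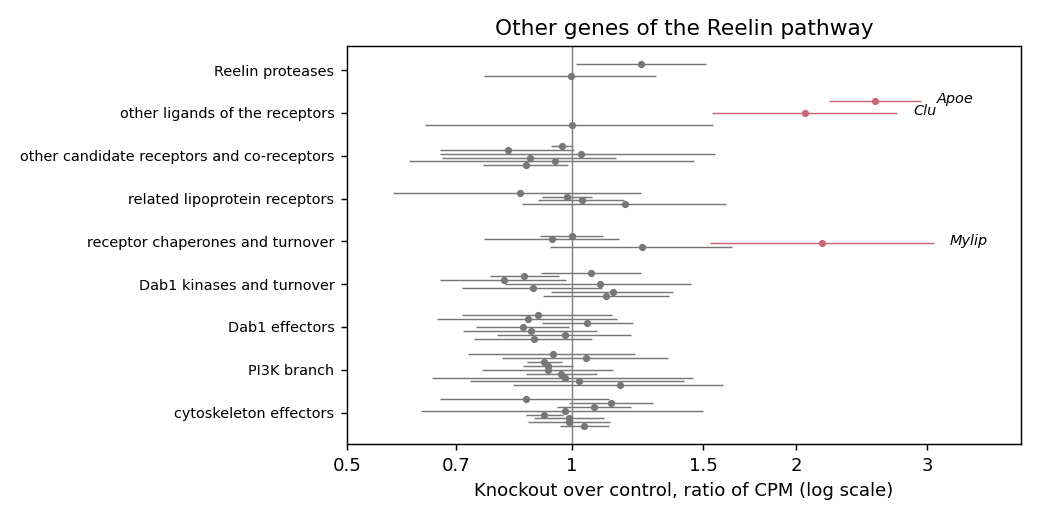
Ratio of knockout to control CPM (x axis, log scale) of the 50 pathway genes with at least 100 UMIs, by group (y axis), with exact 95% intervals for counting error as bars. *Apoe*, *Clu* and *Mylip* (red) lie at 2.55, 2.05 and 2.17, and all other genes (grey) between 0.811 and 1.24.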

How the data were processed

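Sorted CR cells were profiled by 10x 3′ single-cell RNA-sequencing, 1 library per genotype. The authors deposited whole-number UMI counts, by gene, of every barcode with no normalization or cell filter. The sources disagree on how they were made. The matrix headers name Cell Ranger 4, the submitters' processing notes name Cell Ranger 8.0.1 and mm39, and the methods name another Cell Ranger version with mm10. The use of intronic reads is not given in the sources used here.

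Barcodes of at least 2000 UMIs were kept, with no removal of doublets. UMIs were summed per library or class and divided by all UMIs but those of mt-, Rpl, Rps and Mrp genes (Python 3.11.15, numpy 2.4.6, scipy 1.17.1). Ratios have exact conditional binomial intervals, levels exact Poisson and shares Clopper-Pearson intervals, all at 95%. These cover counting error only. Barcodes were thinned to 2000 UMIs without replacement. A gene counted as past 1.5-fold needed at least 100 UMIs over both groups, and pathway genes also an interval without 1. A barcode was led by other markers when a non-CR list held more UMIs than the CR list. The ratio intervals and the thinning were tested on simulated counts, and the other steps were not.

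The 4 genes, the pathway and marker lists and the tests were chosen with earlier results of these data known. Pathway genes were named when past 1.5-fold or among the 2 highest of their group in the control, with 1 gene not reported here, and *Lrp5* and *Pik3r2* were named after their values were seen. The *Reln* correlates are the 5 highest and 5 lowest by the value nearer to 0 of both libraries. Alternatives covered the UMI minimum, quality limits, denominator, thinning, respiratory-high barcodes, other markers, sex, free RNA, class mix and class threshold. Leaving out the barcode highest in a gene, leaving out other-marker barcodes from the respiratory split, and the other-marker and sex splits of *Apoe*, *Clu*, *Mylip* and *Lrp5*, were added after seeing the data. Where barcodes tied for the highest count, the first listed was left out.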

Additional observations from a re-analysis of the deposited data

Results flagged for a closer look

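*Reln* had opposite ratios of knockout to control in the sexes, 0.920 in male and 1.05 in female barcodes, each with an interval that left out 1. Female barcodes were at 7665 (control) and 8084 CPM (knockout), and male barcodes at 8271 and 7611 CPM. The difference was not tested, since each sex of each library is a pool of 1 to 3 mice.

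Barcodes of 500 to under 2000 UMIs, which were left out of the comparisons, also carried the genes. *Reln* was at 6210 CPM in 191 control barcodes and 4971 CPM in 51 knockout barcodes, and in the knockout 31.5% of its 200 UMIs lay in 1 barcode. Barcodes led by markers of another cell type were 31 of these 191 and 17 of these 51, and their part in the levels was not tested. *Dab1* was at 223 CPM in the control barcodes, where 24 of its 33 UMIs lay in 1 barcode of 1725 UMIs that also held 6 *Reln* UMIs and 36 UMIs of CR markers. *Vldlr* was at 47.4 CPM from 7 UMIs and *Lrp8* at 40.6 CPM from 6 UMIs in the control. These genes had at most 3 UMIs each in the knockout barcodes of this size.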

How the results depend on the processing

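Among the alternative values, 191 lay within the interval of the reported one and 40 outside it, and a further 5 crossed 1 where the reported interval left out 1. For knockout over control, male barcodes gave 0.920 for *Reln*, 1.47 for *Dab1* and 1.10 for *Lrp8*, and female barcodes gave 1.05, 1.92 and 0.756, so that *Reln* in female and *Lrp8* in male barcodes lay on the other side of 1 from the reported ratio. Thinning to 2000 UMIs moved *Reln* to 0.927. Among class ratios, thinning gave 0.597 (control) and 0.343 (knockout) for *Dab1* by *Cck*, 2.52 for *Dab1* by *Grik1* in the knockout, 1.12 for *Reln* by *Cck* in the knockout and 0.522 for *Lrp8* by *Chst8* or *Alkal2* in the knockout, and 0.931 for *Reln* and 0.897 for *Lrp8* by *Etv4* or *Etv5*. With classes set at 2 UMIs, *Dab1* was at 0.588 by *Cck* in the control, 2.03 by *Grik1* in the knockout and 0.653 by *Chst8* or *Alkal2* in the control, *Reln* was at 0.958 by *Chst8* or *Alkal2* in the control, *Lrp8* was at 0.905 by *Etv4* or *Etv5*, and *Reln* by *Grik1* in the knockout passed from below 1 to 1.00. Without respiratory-high barcodes, *Reln* was at 0.902 by *Chst8* or *Alkal2* in the control. The same setting gave 0.854 (0.728 to 0.998) for *Lrp8* in knockout over control. That value lay within the reported interval, but its own interval left out 1. Without the barcode highest in *Dab1*, its ratio by *Etv4* or *Etv5* was 1.36.

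Shares of barcodes with *Dab1*, *Vldlr* or *Lrp8* moved with depth by construction. Without thinning they were 31.0% and 39.7% for *Dab1*, 8.51% and 7.64% for *Vldlr* and 42.3% and 38.7% for *Lrp8*, in the control and knockout. Thinned to 4000 UMIs they were 25.9% and 33.8%, 4.98% and 5.99%, and 29.8% and 28.9%. That setting kept only barcodes of at least 4000 UMIs, 903 control and 367 knockout, so the set of barcodes also changed. *Reln* was at 99.2% of those knockout barcodes, against 97.3% of all 406 both without thinning and thinned to 2000 UMIs. Without respiratory-high barcodes *Reln* was at 100% and 98.9%. Of the pathway genes, *Clu* reversed to 0.819 without barcodes led by other markers, and in female barcodes *Clu* was at 0.755 and *Apoe* at 0.802. The causes of the changes other than depth were not tested. For *Vldlr* by *Cck* in the knockout, thinning and a class threshold of 2 UMIs left no UMI in the positive barcodes and gave no value.

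No paired analysis was possible because each genotype has 1 library. Depth limits *Vldlr* most, with 102 and 42 UMIs. Intronic reads cannot be told apart from spliced ones, and library preparation cannot be told apart from genotype. Whether antisense reads entered the counts was not tested.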
